A study of Homo sapiens with 5 samples.

Results

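NODAL, its paralogous ligand GDF3, the co-receptor TDGF1, the receptor subunits ACVR1B and ACVR2B, the nuclear partner FOXH1, the secreted inhibitors LEFTY1, LEFTY2 and CER1, and the intracellular inhibitor SMAD7 were followed across 5 RNA-seq libraries of the human embryonic stem cell line H9. These 10 genes were taken by symbol from a table of 26506 genes. All 10 were found, and all 10 reached 1 TPM (transcript abundance scaled by gene length and library total) in at least 1 library. Each library is the sole sample of its group. Knockout (KO) cells, H9 with genotype B3GALT5-/-, were grown in 2iLAF medium (labelled naive) or in basal medium (labelled primed). Wild-type (WT) H9 cells were grown in 5iLAF (naive), in 2iLAF (primed-naive) or in basal medium (primed). B3GALT5 encodes a galactosyltransferase of globo-series glycolipids, and its transcript was present in every library, at 1.17 TPM in KO 2iLAF, 2.08 in WT 5iLAF, 5.13 in WT 2iLAF, 5.98 in KO basal and 9.31 in WT basal. The labels do not say which part of the gene was edited or whether the KO line is 1 clone, so the transcript level does not check the knockout.

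NODAL is a secreted ligand of the TGF-beta family. It binds type I receptors such as ACVR1B and type II receptors such as ACVR2B, with TDGF1 (CRIPTO) as membrane co-receptor, and the signal reaches the nucleus through SMAD2 and SMAD3, which act with FOXH1. NODAL, LEFTY1 and LEFTY2 are themselves targets of the pathway, so that the ligand feeds its own expression while LEFTY proteins limit it. In primed human embryonic stem cells this signalling, usually supplied by activin A, maintains NANOG and pluripotency, and at higher strength it drives mesendoderm formation. The letters LAF stand for LIF, activin A and FGF2, so both 2iLAF and 5iLAF supply activin, which acts through the same receptor subunits but without TDGF1. The 2i and 5i parts are mixtures of kinase inhibitors.

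The ligand, its close relative and the secreted inhibitors were high together in KO 2iLAF and WT 5iLAF, intermediate in both basal libraries and close to nothing in WT 2iLAF. The summed level of NODAL, GDF3, LEFTY1, LEFTY2 and CER1 was 2952 TPM in KO 2iLAF and 4872 TPM in WT 5iLAF, against 3.77 TPM in WT 2iLAF, 81.9 TPM in KO basal and 120.0 TPM in WT basal. The receptor subunits and FOXH1 did not follow that order and varied by at most 2.62-fold between any pair of libraries. With 1 library per group there is no spread between replicates, no test could be made, and neighbours in an order of levels cannot be called different. Differences are described by a size rule, a log2 ratio of TPM + 1 of at least 1 in either direction, and the counts of these genes are set beside the share of all 15761 genes reaching 1 TPM that pass the same rule. The 7 comparisons share libraries, so their counts are not independent of each other.

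**Figure D1:**
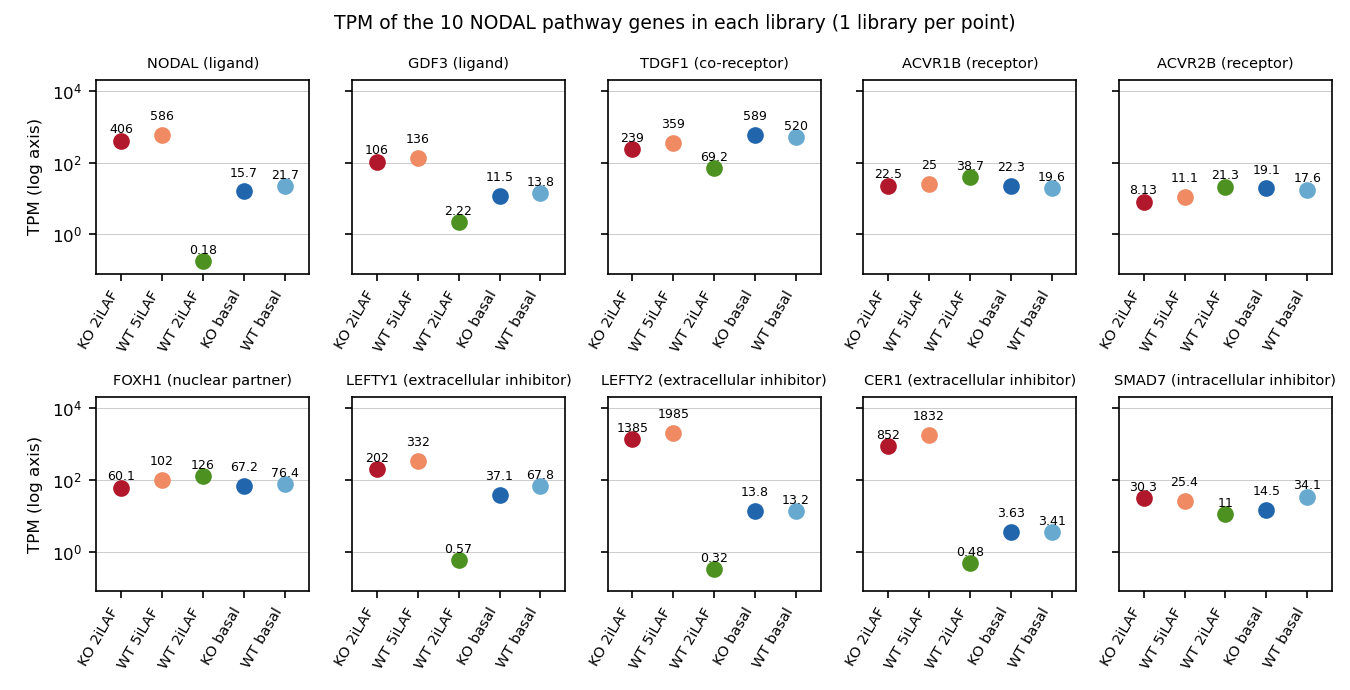
TPM of each gene (vertical log axis) in the 5 libraries, with the value printed above each point and 1 library per point. NODAL, GDF3, LEFTY1, LEFTY2 and CER1 are highest in WT 5iLAF and KO 2iLAF and lowest in WT 2iLAF, where NODAL stands at 0.18 TPM, whereas ACVR1B, ACVR2B and FOXH1 stay within a narrow range.

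Promoter sequences were available in the RefSeq promoter table (build GRCh38.p14, 300 bases around the gene start) for 3 of the 5 genes that moved together, and are shown because these are the genes whose transcripts spanned the widest range. They are printed 5′ to 3′ on the strand of the gene, all on the minus strand: chr10:70441632-70441931 for NODAL, chr9:14722684-14722983 for CER1 and chr12:7695726-7696025 for GDF3. Capitals mark matches to motifs of the pathway's nuclear factors.
NODAL: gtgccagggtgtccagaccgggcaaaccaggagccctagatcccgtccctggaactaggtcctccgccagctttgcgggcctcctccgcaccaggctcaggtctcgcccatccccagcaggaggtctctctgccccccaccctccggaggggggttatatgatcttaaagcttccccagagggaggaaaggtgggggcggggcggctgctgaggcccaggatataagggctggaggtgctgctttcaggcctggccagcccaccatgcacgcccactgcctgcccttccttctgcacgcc
CER1: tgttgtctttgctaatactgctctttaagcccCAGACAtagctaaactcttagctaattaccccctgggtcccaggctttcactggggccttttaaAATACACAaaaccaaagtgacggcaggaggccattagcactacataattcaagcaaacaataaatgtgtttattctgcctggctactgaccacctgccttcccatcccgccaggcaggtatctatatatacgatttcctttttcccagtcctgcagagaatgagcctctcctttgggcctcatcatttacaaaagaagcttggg
GDF3: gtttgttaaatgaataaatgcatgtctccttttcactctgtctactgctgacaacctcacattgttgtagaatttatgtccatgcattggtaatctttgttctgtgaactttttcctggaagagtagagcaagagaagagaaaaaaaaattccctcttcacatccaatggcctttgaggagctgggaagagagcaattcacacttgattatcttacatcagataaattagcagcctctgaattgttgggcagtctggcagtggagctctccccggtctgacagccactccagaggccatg
Searched on both strands were the FOXH1 cores AATCCACA and AATACACA, the SMAD palindrome GTCTAGAC and the SMAD-binding CAGA box CAGACA. In the CER1 window AATACACA began at base -154 and CAGACA at base -218, counted from the gene start, and the matches did not overlap. No match lay in the NODAL and GDF3 windows, nor in those of ACVR1B, ACVR2B and SMAD7 (the first listed window of each), so 1 of the 6 genes searched held any of these letters. Among all 35116 windows of this length, 0.766% held AATACACA, 0.817% AATCCACA, 0.202% the palindrome, 16.9% CAGACA and 18.2% any of them. LEFTY1, LEFTY2, TDGF1 and FOXH1 are named only.

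Among the ligands, NODAL stood at 406 TPM in KO 2iLAF, 586 in WT 5iLAF, 0.18 in WT 2iLAF, 15.7 in KO basal and 21.7 in WT basal. It was thus among the 365 most abundant genes of KO 2iLAF and the 231 most abundant of WT 5iLAF, and ranked 16322nd in WT 2iLAF. GDF3, a NODAL-related ligand that also binds TDGF1-containing receptors and can hold back BMP signalling, stood at 106 TPM in KO 2iLAF, 136 in WT 5iLAF, 2.22 in WT 2iLAF, 11.5 in KO basal and 13.8 in WT basal. Both ligands had the same order of libraries, but GDF3 covered a 61.4-fold range of TPM and NODAL a 3257-fold range. The lower end of that NODAL range is a value of 0.18 TPM at unknown depth. In WT 2iLAF alone, GDF3 was the more abundant of the pair, at 12.3 times the NODAL level, whereas it stood at 0.26 and 0.23 times NODAL in KO 2iLAF and WT 5iLAF and at 0.73 and 0.64 times in KO basal and WT basal.

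TDGF1, the co-receptor, had an order of its own, at 239 TPM in KO 2iLAF, 359 in WT 5iLAF, 69.2 in WT 2iLAF, 589 in KO basal and 519.5 in WT basal. It was highest in the basal libraries, where the ligands were intermediate, and lowest in WT 2iLAF, where they were near 0. Its processed copy TDGF1P3 stood at 2.35, 8.82, 1.22, 13.7 and 13.3 TPM in the same libraries, never more than 2.5% of the pair, and 40.7% of 50-base windows of the longest TDGF1 transcript (GENCODE 29) also occur in TDGF1P3. Reads could be split between these copies, but even the whole of TDGF1P3 would not alter the order of TDGF1.

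ACVR1B, the type I receptor subunit ALK4, stood at 22.5 TPM in KO 2iLAF, 24.96 in WT 5iLAF, 38.7 in WT 2iLAF, 22.3 in KO basal and 19.6 in WT basal. ACVR2B, a type II subunit shared by NODAL and activin, stood at 8.13 TPM in KO 2iLAF, 11.1 in WT 5iLAF, 21.3 in WT 2iLAF, 19.1 in KO basal and 17.6 in WT basal. FOXH1, the DNA-binding partner of activated SMAD2, stood at 60.1 TPM in KO 2iLAF, 102 in WT 5iLAF, 126 in WT 2iLAF, 67.2 in KO basal and 76.4 in WT basal. WT 2iLAF held the highest level of all 3 genes and the lowest level of the ligands, the co-receptor and every inhibitor. Receptor and FOXH1 transcripts were therefore present in the library in which NODAL was near 0.

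LEFTY1 and LEFTY2, secreted antagonists that bind NODAL and its co-receptor, are neighbouring near-copies on chromosome 1. LEFTY1 stood at 202 TPM in KO 2iLAF, 332 in WT 5iLAF, 0.57 in WT 2iLAF, 37.1 in KO basal and 67.8 in WT basal. LEFTY2 stood at 1385 TPM in KO 2iLAF, 1985 in WT 5iLAF, 0.32 in WT 2iLAF, 13.8 in KO basal and 13.2 in WT basal. LEFTY2 was the more abundant copy in KO 2iLAF and WT 5iLAF, by 6.85-fold and 5.98-fold. LEFTY1 was the more abundant copy in KO basal and WT basal, by 2.68-fold and 5.13-fold. In WT 2iLAF LEFTY1 stood 1.78-fold above LEFTY2, but with 0.57 and 0.32 TPM at unknown depth the order there is uncertain. In the longest transcripts, 31.3% of 50-base windows of LEFTY1 also occur in LEFTY2 and 22.0% of those of LEFTY2 in LEFTY1, so the split between them is an estimate. Their sum was 1587 TPM in KO 2iLAF, 2317 in WT 5iLAF, 0.89 in WT 2iLAF, 51.0 in KO basal and 81.1 in WT basal.

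CER1, a secreted antagonist of NODAL and BMP ligands made by anterior endoderm, stood at 852 TPM in KO 2iLAF, 1832 in WT 5iLAF, 0.48 in WT 2iLAF, 3.63 in KO basal and 3.41 in WT basal. LEFTY2 and CER1 ranked 81st and 88th of 26506 genes in WT 5iLAF and 118th and 169th in KO 2iLAF. SMAD7, which blocks type I receptors inside the cell, stood at 30.3 TPM in KO 2iLAF, 25.4 in WT 5iLAF, 11.0 in WT 2iLAF, 14.5 in KO basal and 34.1 in WT basal. It was the sole inhibitor that was highest in WT basal, and its range over the libraries was 3.12-fold.

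In basal medium, labelled primed, KO cells were set against WT cells. With 1 library each, the genotype cannot be told apart from other differences between these libraries. None of the 10 genes was higher by the size rule (0.704% of all genes were) and 1 was lower (1.05% of all genes). That gene was SMAD7, with a log2 ratio of -1.18, the 114th lowest of 15761. LEFTY1 came next, with a log2 ratio of -0.85, within the size rule. The other 8 genes had log2 ratios between -0.44 for NODAL and 0.18 for TDGF1. The median over the 10 genes was -0.06, beside -0.06 over all genes.

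**Figure D2:**
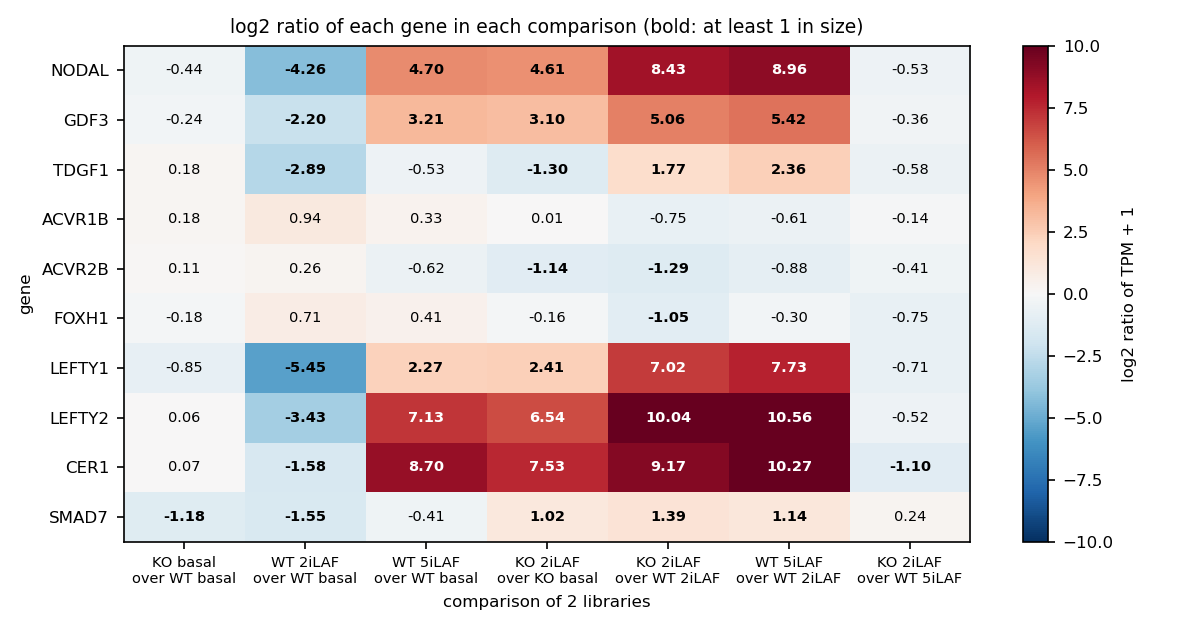
Log2 ratio of TPM + 1 of each gene (rows) in each comparison of 2 libraries (columns), red for higher and blue for lower in the first-named library, bold where the ratio is at least 1 in size. In WT 2iLAF over WT basal, 7 genes are lower, and in both comparisons over WT 2iLAF the 5 ligand and secreted-inhibitor genes have ratios between 5.06 and 10.56.

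For 2iLAF without the knockout, WT 2iLAF was set against WT basal. By the size rule 7 of the 10 genes were lower, against 7.03% of all genes, and 0 were higher, against 4.73%. LEFTY1 had a log2 ratio of -5.45, the 5th lowest of all genes, NODAL -4.26 (16th lowest), LEFTY2 -3.43 and TDGF1 -2.89. GDF3, CER1 and SMAD7 followed with -2.20, -1.58 and -1.55. CER1 was low in both libraries, and with a pseudocount of 5 TPM its ratio of -0.62 was within the size rule. ACVR1B, at 0.94, was just inside the rule and passed it as higher after median-ratio scaling (1.11), trimmed-mean scaling (1.10) or in FPKM (1.00). The median over all genes was -0.13 here and 0.00 after median-ratio scaling, against -1.89 over the 10 genes. Of the genes passing the rule 40.2% were higher as deposited, 53.7% after median-ratio scaling and 52.6% after trimmed-mean scaling.

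The same WT 2iLAF library stood apart in other cell type markers. The 7 anterior neural markers summed to 682 TPM there, against 25.8 in KO 2iLAF, 42.1 in WT 5iLAF, 17.9 in KO basal and 18.3 in WT basal. LHX5, a forebrain transcription factor, stood at 89.7 TPM in WT 2iLAF and at 0.04 TPM or below elsewhere, whereas SOX1 and PAX6 stayed at 0.27 TPM each. All 8 core pluripotency markers were at or above 1 TPM in WT 2iLAF. By the size rule 3 were higher and 3 lower there than in WT basal (4.73% and 7.03% of all genes). POU5F1 stood at 1099 TPM in WT 2iLAF against 3350.3 in WT basal, and NANOG at 16.5 against 171. PRDM14 and SALL4 went the other way, at 92.7 and 167 TPM in WT 2iLAF against 23.8 and 67.2 in WT basal. The part of the anterior neural transcripts in the lower NODAL, LEFTY and TDGF1 levels was not tested. In bulk RNA, fewer cells of a type and less RNA per cell cannot be told apart.

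For 5iLAF, the WT library was set against WT basal. By the size rule 5 of the 10 genes were higher, against 10.7% of all genes, and 0 were lower, against 11.4% (22.1% in either direction). CER1 had a log2 ratio of 8.70, the second highest of all 15761 genes, and LEFTY2 7.13, the 6th highest. NODAL followed with 4.70, GDF3 with 3.21 and LEFTY1 with 2.27. TDGF1 (-0.53), ACVR2B (-0.62), SMAD7 (-0.41), FOXH1 (0.41) and ACVR1B (0.33) were within the rule. The median over the 10 genes was 1.34, beside -0.06 over all genes.

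For KO cells, 2iLAF was set against basal medium. In this pair 6 of the 10 genes were higher, against 15.9% of all genes, and 2 were lower, against 11.8% (27.7% in either direction). CER1 had a log2 ratio of 7.53 (12th highest of all genes), LEFTY2 6.54 (26th), NODAL 4.61, GDF3 3.10 and LEFTY1 2.41. SMAD7 passed the rule narrowly, at 1.02, and was within it with a pseudocount of 5 TPM (0.86), after trimmed-mean scaling (0.99) and in FPKM (0.90). TDGF1 and ACVR2B were lower, at -1.30 and -1.14, and ACVR2B was within the rule with a pseudocount of 5 TPM (-0.87). ACVR1B had a log2 ratio of 0.01 and FOXH1 one of -0.16. The median over the 10 genes was 1.71, beside 0.02 over all genes. NODAL, GDF3, LEFTY1, LEFTY2, CER1 and SMAD7, the 6 genes higher here, were all lower in WT 2iLAF over WT basal, a combination found in 0.711% of all genes (1.21% went opposite ways in either order).

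**Figure D3:**
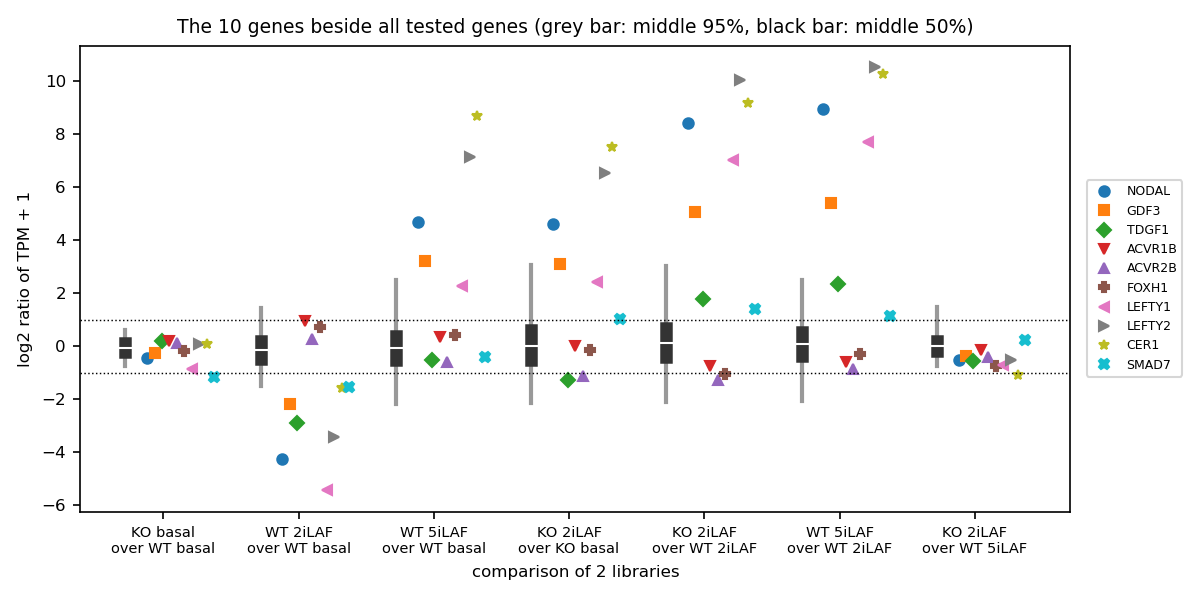
Log2 ratio of TPM + 1 (vertical axis) in each comparison of 2 libraries, with the 10 genes as coloured symbols beside all 15761 tested genes (grey bar, middle 95%; black bar, middle 50%; white mark, median; dotted lines, the size rule). NODAL, LEFTY2 and CER1 lie above the grey bar in WT 5iLAF over WT basal and in KO 2iLAF over KO basal, where GDF3, at 3.10, lies at its upper end in the second of them.

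The genotypes were next set against each other in 2iLAF, KO over WT, a comparison that shares the KO 2iLAF library with the preceding one. By the size rule 7 of the 10 genes were higher in KO, against 16.6% of all genes, and 2 were lower, against 10.8% (27.5% in either direction). LEFTY2 had the second highest log2 ratio of all genes, 10.04, CER1 the 4th, 9.17, and NODAL the 6th, 8.43. LEFTY1 had 7.02, GDF3 5.06, TDGF1 1.77 and SMAD7 1.39. FOXH1 was lower, at -1.05, as was ACVR2B, at -1.29, and ACVR1B, at -0.75, was within the rule. The median over the 10 genes was 3.42, beside 0.10 over all genes. The KO and WT libraries in 2iLAF also differ in labelled state, naive in KO and primed-naive in WT.

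WT 5iLAF was set against WT 2iLAF, a comparison of media within the WT genotype that shares the WT 2iLAF library with the preceding one. In WT 5iLAF 7 of the 10 genes were higher, against 12.2% of all genes, and 0 were lower, against 9.54%. LEFTY2, CER1 and NODAL held the highest 3 log2 ratios of all 15761 genes, at 10.56, 10.27 and 8.96. LEFTY1 had 7.73, GDF3 5.42, TDGF1 2.36 and SMAD7 1.14, the last falling within the rule with a pseudocount of 5 TPM (0.93). The median over the 10 genes was 3.89, beside 0.08 over all genes.

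KO 2iLAF and WT 5iLAF, the libraries labelled naive, were compared with each other. None of the 10 genes was higher in KO 2iLAF (4.90% of all genes were), and 1 was lower (1.03% of all genes, and 5.93% in either direction). CER1 was that gene, with a log2 ratio of -1.10. Of the other 9 genes, SMAD7 had a positive ratio, 0.24, and the remaining 8 had ratios between -0.75 for FOXH1 and -0.14 for ACVR1B. The median over the 10 genes was -0.52, beside 0.00 over all genes.

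The balance of inhibitor and ligand transcripts within a library was less variable than their levels. LEFTY1, LEFTY2 and CER1 together stood at 6.01 times NODAL in KO 2iLAF, 7.08 times in WT 5iLAF, 7.61 times in WT 2iLAF, 3.48 times in KO basal and 3.90 times in WT basal. The ratio in WT 2iLAF rests on a sum of 1.37 TPM over 0.18 TPM at unknown depth. Without CER1, LEFTY1 and LEFTY2 together stood at 3.91, 3.95, 4.94, 3.24 and 3.74 times NODAL in the same libraries. The kind of inhibitor differed more. CER1 made up 34.9% of the 3 inhibitors in KO 2iLAF, 44.2% in WT 5iLAF and 35.0% in WT 2iLAF, against 6.65% in KO basal and 4.04% in WT basal, where LEFTY1 made up 68.0% and 80.3%. NODAL exceeded TDGF1 in KO 2iLAF and WT 5iLAF, by 1.70-fold and 1.64-fold, while TDGF1 stood at 385 times NODAL in WT 2iLAF, 37.5 times in KO basal and 24.0 times in WT basal.

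**Figure D4:**
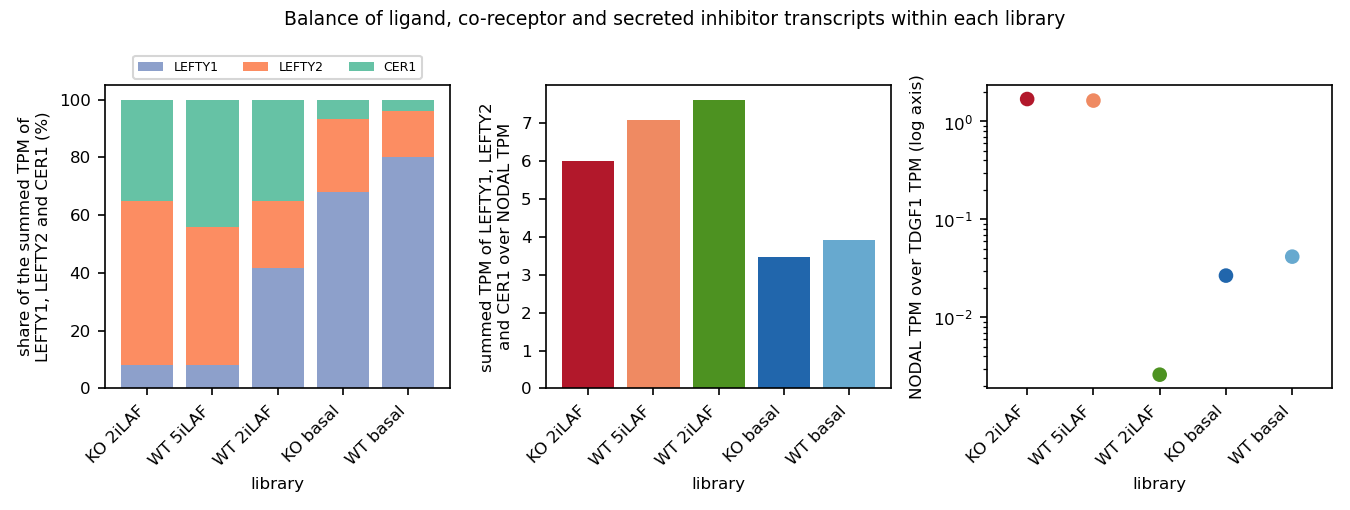
Left, share of LEFTY1, LEFTY2 and CER1 in their summed TPM (%); middle, that sum over NODAL TPM; right, NODAL TPM over TDGF1 TPM on a log axis; each for the 5 libraries, 1 library each. LEFTY1 makes up 80.3% of the inhibitor sum in WT basal and 8.29% in KO 2iLAF, while the sum stays between 3.48 and 7.61 times NODAL.

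Of the 45 other genes of the NODAL, activin and TGF-beta pathway that were counted, 42 reached 1 TPM. By the size rule 20 were higher and 2 lower in KO 2iLAF over KO basal (15.9% and 11.8% of all genes), with the same counts in WT 5iLAF over WT basal (10.7% and 11.4%). In KO 2iLAF over WT 2iLAF 20 were higher and 1 lower (16.6% and 10.8% of all genes), and in WT 5iLAF over WT 2iLAF 17 and 0 (12.2% and 9.54%). In KO 2iLAF over WT 5iLAF 5 were higher and 3 lower (4.90% and 1.03% of all genes). WT 2iLAF over WT basal gave 4 higher and 5 lower (4.73% and 7.03% of all genes). KO basal over WT basal gave 0 higher and 0 lower (0.704% and 1.05% of all genes). Their median log2 ratio was 0.93 in KO 2iLAF over KO basal, 0.72 in WT 5iLAF over WT basal and -0.04 in WT 2iLAF over WT basal, beside 0.02, -0.06 and -0.13 over all genes.

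Other ligands followed NODAL only in part. Of the 7 counted ligands reaching 1 TPM, 5 were higher and 2 lower in KO 2iLAF over KO basal (15.9% and 11.8% of all genes). WT 5iLAF over WT basal gave the same counts (10.7% and 11.4% of all genes). INHBA, whose dimer is activin A, stood at 17.7 TPM in KO 2iLAF, 15.5 in WT 5iLAF and 0.48 in WT 2iLAF, and was listed at 0 in both basal libraries. TGFB1 stood at 61.6 TPM in KO 2iLAF, 68.5 in WT 5iLAF, 4.25 in WT 2iLAF, 6.15 in KO basal and 6.72 in WT basal. INHBE ran the other way, at 1.76 TPM in KO 2iLAF, 2.28 in WT 5iLAF, 1.54 in WT 2iLAF, 23.2 in KO basal and 17.6 in WT basal. GDF1, the other ligand that was lower in KO 2iLAF and WT 5iLAF over basal, shares every 50-base window of its longest transcript with CERS1, so its values are uncertain. The alternative co-receptor CFC1 was listed at 0 in both basal libraries and stood at 3.31 TPM in KO 2iLAF, 10.1 in WT 5iLAF and 1.43 in WT 2iLAF, beside its near-copy CFC1B at 0.67, 3.71 and 0.99 TPM in the same 3 libraries.

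Among inhibitors outside the 10 genes, FST (follistatin, which binds activin) did not share the near-absence of LEFTY transcripts in WT 2iLAF. It stood at 181 TPM in KO 2iLAF, 179 in WT 5iLAF, 45.03 in WT 2iLAF, 3.13 in KO basal and 4.73 in WT basal. BAMBI, a decoy receptor at the cell surface, stood at 180 TPM in KO 2iLAF, 77.1 in WT 5iLAF, 15.1 in WT 2iLAF, 28.6 in KO basal and 27.2 in WT basal. FSTL3, another activin binder, stood at 109 TPM in KO 2iLAF, 16.9 in WT 5iLAF, 7.45 in WT 2iLAF, 5.03 in KO basal and 5.04 in WT basal. Between the libraries labelled naive, KO 2iLAF over WT 5iLAF, FSTL3 and BAMBI had log2 ratios of 2.62 and 1.22, past the size rule. No NODAL, GDF3 or LEFTY ratio passed the rule in that comparison, whereas CER1 passed it the other way, at -1.10.

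**Figure D5:**
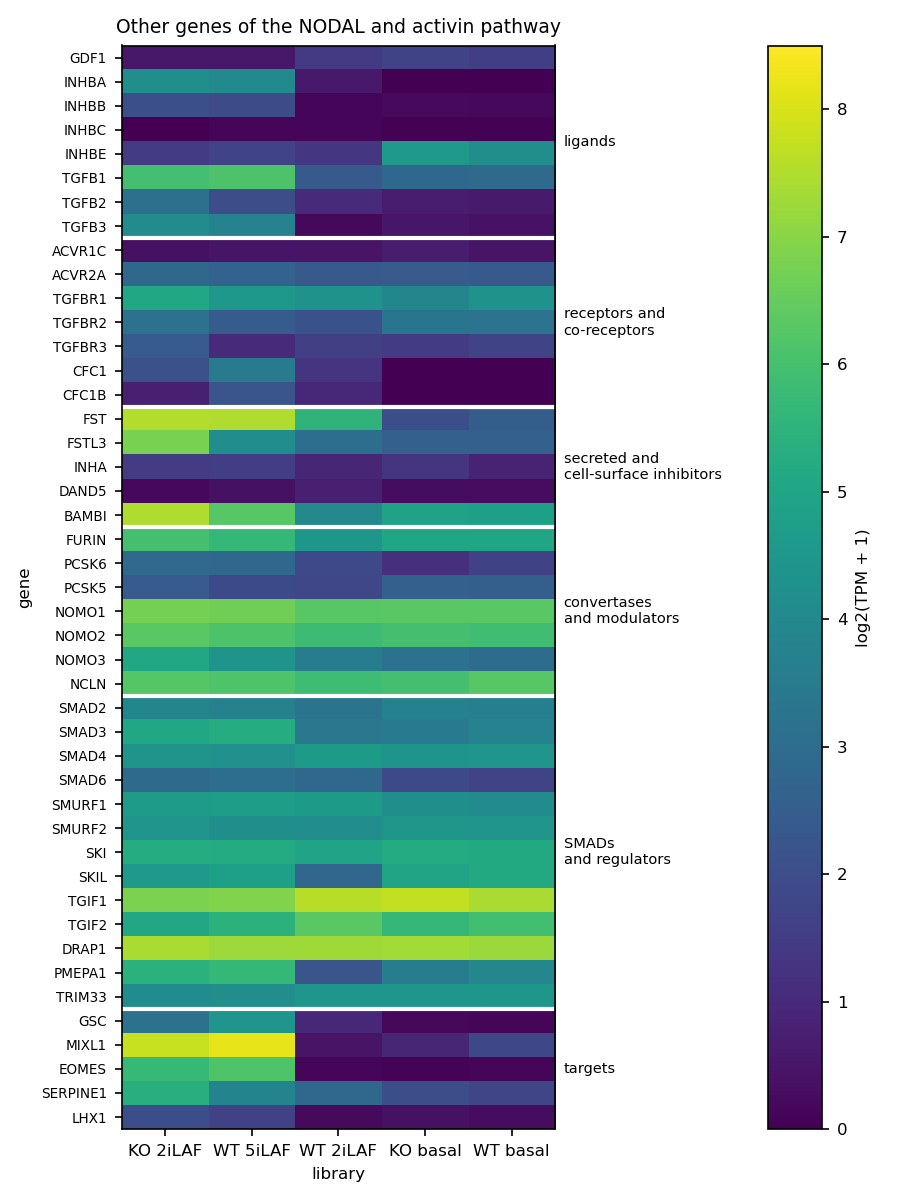
Level of the 45 other pathway genes as log2(TPM + 1) (colour) in the 5 libraries (columns), grouped by role. The 5 target genes at the foot are brightest in KO 2iLAF and WT 5iLAF, and 3 of the 13 SMAD genes and regulators pass the size rule in KO 2iLAF over KO basal.

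Of 13 SMADs and regulators of SMADs 3 were higher and 0 lower in KO 2iLAF over KO basal (15.9% and 11.8% of all genes), and likewise in WT 5iLAF over WT basal (10.7% and 11.4%). They were PMEPA1, a feedback inhibitor of SMAD2 and SMAD3 (41.8 TPM in KO 2iLAF, 49.7 in WT 5iLAF, 3.75 in WT 2iLAF, 11.1 in KO basal and 14.3 in WT basal), SMAD3 and SMAD6. SKIL, a SMAD co-repressor that the pathway induces, stood at 23.2 TPM in KO 2iLAF, 26.7 in WT 5iLAF, 6.03 in WT 2iLAF, 30.3 in KO basal and 34.6 in WT basal. In WT 2iLAF over WT basal SKIL and PMEPA1 were lower, at log2 ratios of -2.34 and -1.69, and SMAD6, which inhibits BMP-activated SMADs, was higher, at 1.13.

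All 5 counted target genes of mesendoderm and of the pathway were higher in KO 2iLAF over KO basal and in WT 5iLAF over WT basal, against 15.9% and 10.7% of all genes. MIXL1, a homeobox gene of the primitive streak, stood at 218 TPM in KO 2iLAF, 292 in WT 5iLAF, 0.38 in WT 2iLAF, 0.90 in KO basal and 2.59 in WT basal. EOMES, a T-box gene of the same stage, stood at 51.0 TPM in KO 2iLAF, 70.2 in WT 5iLAF, 0.10 in WT 2iLAF, 0.06 in KO basal and 0.12 in WT basal. Both genes were high in the libraries in which NODAL was high, and EOMES was near 0 in the other 3.

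Sums of markers of several other cell types were also highest in KO 2iLAF and WT 5iLAF. All 8 primitive streak markers, 4 of which are also in the list of targets, were at or above 1 TPM in KO 2iLAF and WT 5iLAF, with sums of 488 and 670 TPM, against 5.82 TPM in WT 2iLAF, 4.79 in KO basal and 6.77 in WT basal. Of 10 endoderm markers 9 and 7 reached 1 TPM in KO 2iLAF and WT 5iLAF, with sums of 172 and 143 TPM, against sums of 8.36 in WT 2iLAF, 4.21 in KO basal and 5.35 in WT basal. SOX17, which defines endoderm, stood at 14.6 and 17.7 TPM in the first pair and was listed at 0 in WT 2iLAF and KO basal. Mesenchyme and fibroblast markers summed to 8084 TPM in KO 2iLAF, 3747 in WT 5iLAF, 605 in WT 2iLAF, 319 in KO basal and 141 in WT basal. Trophoblast and amnion markers summed to 144 TPM in KO 2iLAF, 52.7 in WT 5iLAF, 30.4 in WT 2iLAF, 8.90 in KO basal and 5.86 in WT basal. Most of that sum was HAND1 in the first pair, at 135 and 43.5 TPM, which was listed at 0 in both basal libraries. TFAP2A, GATA3 and GATA2 were instead highest in WT 2iLAF, at 17.3, 6.70 and 4.92 TPM. Of the 6 trophoblast and amnion markers reaching 1 TPM, 2 were higher and 2 lower in KO 2iLAF over WT 2iLAF (16.6% and 10.8% of all genes). Primed markers ran the other way, with 7 of 8 lower and 1 higher in KO 2iLAF over KO basal (11.8% and 15.9% of all genes). Their counts were the same in WT 5iLAF over WT basal (11.4% and 10.7% of all genes). The part of these cell types in the NODAL, LEFTY and CER1 levels was not tested.

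All 12 granulocyte markers were at or above 1 TPM in KO 2iLAF, with a sum of 1272 TPM, against 10.2 in WT 5iLAF, 4.74 in WT 2iLAF, 3.22 in KO basal and 2.3 in WT basal. By the size rule all 12 were higher in KO 2iLAF over KO basal, against 15.9% of all genes. A single gene was higher in WT 5iLAF over WT basal (LYZ, 8.94 against 1.46 TPM), against 10.7% of all genes. Another was higher in WT 2iLAF over WT basal (AZU1, 2.91 against 0.07 TPM), against 4.73% of all genes. In WT 5iLAF 6 of the 12 were listed at 0, S100A8 and DEFA3 among them. The part of granulocyte transcripts in the KO 2iLAF values was not tested. The labelled naive state was not carried by all its markers. Of 12 naive markers 8 were at or above 1 TPM in each library labelled naive, but so were 8 in WT 2iLAF. KO basal and WT basal held 5 and 6. DNMT3L stood at 51.4 and 76.4 TPM in KO 2iLAF and WT 5iLAF, against 1.57 in WT 2iLAF. KLF4 was highest in WT 2iLAF, at 20.5 TPM, against 7.57 in KO 2iLAF and 7.71 in WT 5iLAF. KLF17 was listed at 0 in KO 2iLAF and stood at 0.12 TPM in WT 5iLAF.

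Genes with the most similar pattern were sought among 10375 others reaching 10 TPM, by the root mean square difference of log2(TPM + 1) centred on each gene's mean over the 5 libraries. Nearest to NODAL were CST1 (difference 0.88), BGN (0.93), COL5A2 (1.09), MIXL1 (1.23) and RNASE1 (1.33), with LEFTY2, LEFTY1 and GDF3 at places 3, 4 and 7 of the whole order. CST1, a secreted cystatin, stood at 128 TPM in KO 2iLAF, 219 in WT 5iLAF, 1.06 in WT 2iLAF, 9.52 in KO basal and 8.66 in WT basal. Nearest to LEFTY2 was CER1 (0.77), followed by NODAL and, outside the 10 genes, MIXL1 (1.11), IGFBP7, APLNR, T and CST1. GDF3 was nearest to ENC1 (0.29), LRRN2, COL5A2, LOC101927668 and BGN.

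TDGF1 had smaller differences to its nearest genes than the ligands had, and none of its nearest genes was among the 10. The nearest were LDB2 (0.15), TMEM63A (0.21), SLC4A7 (0.23), ZSCAN2 (0.24) and MYC (0.24). The difference was not scaled by a gene's range, which was 8.51-fold for TDGF1, 61.4-fold for GDF3 and 3257-fold for NODAL. Its size therefore cannot rank likeness between these genes. MYC, a growth regulator, stood at 54.3 TPM in KO 2iLAF, 54.8 in WT 5iLAF, 11.8 in WT 2iLAF, 94.7 in KO basal and 72.7 in WT basal. All of these likenesses are over the same 5 libraries, and carry no test.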

How the data were processed

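RNA-seq of H9 cells was measured in 5 libraries, 1 per group, made with a stranded poly(A) kit per the labels' protocols. Per the submitters' processing notes, Trimmomatic 0.39, Bowtie2 2.3.4.1, RSEM 1.2.28 and build hg19 were used; annotation and strand setting (not given in the sources used here) remain unknown. The authors deposited TPM values, summing to about 1000000 per library, and FPKM values, per the file headers. Depth is unknown: at most 6.66% of genes between 0.15 and 0.6 FPKM shared a ratio within 0.05 on the log2 scale, so no step of whole reads was seen. RSEM divides reads shared by near-identical genes by an estimate.

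Values were compared as log2((TPM + 1)/(TPM + 1)), which understates ratios of low genes, among 15761 genes reaching 1 TPM in at least 1 library. A gene was counted at a ratio of at least 2-fold. No p-value is possible with 1 library per group. Named genes were the 10 genes, up to 4 of each pathway list with the largest ratios, defining markers, and the 5 most similar patterns for NODAL, LEFTY2, GDF3 and TDGF1; SKIL, CFC1B, GDF1 and SMAD6 were also named where a count called for it, after their values were seen. Genes and lists were chosen with earlier results of these data known. A gene of the list of targets is not reported here and was left out of the counts. The procedure was tested on simulated data, with 4-fold changes planted in genes well above 1 TPM and an assumed noise. That does not check levels below 1 TPM or the real spread between libraries. Alternatives were other pseudocounts, filters, scalings, size rules, FPKM and summed copies. Python 3.11.15, numpy 2.4.6, pandas 2.3.3, biopython 1.88 and matplotlib 3.10.9 were used.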

Additional observations from a re-analysis of the deposited data

Results flagged for a closer look

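Among the 10 genes, 6 went opposite ways under the same change of medium, 2iLAF over basal, in KO and in WT cells, past the size rule on both sides. All 6 were higher in KO and lower in WT, as were 0.711% of all 15761 genes, and 1.21% of all genes went opposite ways in either order. The KO ratio minus the WT ratio on the log2 scale was 9.97 for LEFTY2, 9.10 for CER1, 8.87 for NODAL, 7.87 for LEFTY1, 5.30 for GDF3 and 2.57 for SMAD7. Each of the 4 groups behind these values holds 1 library, so the difference was not tested. SMAD7 passed the rule narrowly in KO, at a log2 ratio of 1.02. The WT 5iLAF library, set against WT basal, had positive ratios for the first 5 of these genes and -0.41 for SMAD7.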

How the results depend on the processing

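Each of the 7 comparisons was recomputed under 10 alternatives. No gene that passed the size rule changed its direction. Of 679 gene values 649 kept their side of the rule, 18 fell within it and 12 newly passed it. Part of the 649 could not move. The filters leave each gene's ratio as it was (70 values with no filter and 70 with 5 TPM). Summing copies likewise leaves the genes that were not summed as they were (49 values). The ratios of the summed LEFTY and TDGF1 copies are not among the 679. With a rule of 1.5-fold, 2 in place of 1 of the 10 genes passed in KO basal over WT basal and 3 in place of 1 in KO 2iLAF over WT 5iLAF. With a rule of 4-fold these counts were 0 and 0, and 5 genes passed in place of 8 in KO 2iLAF over KO basal and in place of 9 in KO 2iLAF over WT 2iLAF. Over all genes, pseudocounts of 0.1 and 5 TPM gave 851 and 74 genes past the rule in place of 277 in KO basal over WT basal, 3005 and 806 in place of 1853 in WT 2iLAF over WT basal, and 1720 and 323 in place of 935 in KO 2iLAF over WT 5iLAF. With 5 TPM the count was 1718 in place of 3487 in WT 5iLAF over WT basal, 2229 in place of 4370 in KO 2iLAF over KO basal, 2195 in place of 4329 in KO 2iLAF over WT 2iLAF and 1682 in place of 3428 in WT 5iLAF over WT 2iLAF. Rules of 1.5-fold and 4-fold gave, in that order of the 7 comparisons, 1208 and 44, 4750 and 392, 2163 and 226, 6401 and 1091, 7588 and 1429, 7406 and 1422, and 6396 and 1074. A filter of 5 TPM gave 182 and FPKM 160 in KO basal over WT basal, and 571 and 590 in KO 2iLAF over WT 5iLAF. No paired analysis was possible because each group holds 1 library, and no library could be left out. Levels below 1 TPM, such as NODAL, LEFTY1, LEFTY2 and CER1 in WT 2iLAF, rest on few reads at unknown depth, so folds against them are imprecise.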
